A study of Saccharomyces cerevisiae with 2 samples.

Results

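The 37 protein-coding genes of the budding yeast Saccharomyces cerevisiae whose symbol is ATG followed by a number were taken from 6002 nuclear protein-coding genes of the R64 annotation. They were examined for DHS, short for DNase I hypersensitive sites, which are stretches of chromatin open to cutting by that enzyme, and for footprints, the short protected stretches within them. One strain carried the temperature-sensitive Hsp90 allele G170D and the other was wild type (WT), both in the BY4741 laboratory background. Both were grown in rich YPD medium at 37 °C for 6 h, the G170D culture starting at an OD of 0.37 and the WT culture at 0.25, and both were taken at an OD of 0.65 to 0.7. Each strain had 1 library, so strain, growth over the 6 h and library cannot be told apart, and every value below describes these libraries with no test across replicates.

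Autophagy carries cytoplasm, organelles and selected proteins into the vacuole for breakdown. A kinase complex built around Atg1 starts it, Atg9 vesicles and a phosphatidylinositol 3-kinase complex build the membrane, a ubiquitin-like system attaches Atg8 to lipid in that membrane, and receptor proteins tie chosen cargo to Atg8. In yeast growing in rich medium autophagy is held low by nutrient signalling through TORC1 and protein kinase A. The genes are described in the order of those roles. For each gene, DHS length in bp and the number of footprint midpoints were taken in the 500 bp upstream of the coding start (the promoter window), in the coding region and in the 500 bp after the coding end. Positions are those of sacCer3, which is the R64 assembly.

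The G170D lists held 2875 DHS and 33585 footprints, and the WT lists held 3155 DHS and 45019 footprints. The read number behind either list is unknown, so a region missing from a list is a region that was not called, not one shown to be closed. Of the marker genes that are not functional in BY4741, HIS3 and URA3 held no DHS in any window in either strain. The same was true of 33.6% of all genes, so this does not show that HIS3 and URA3 were absent. The LEU2 coding region was covered over all of its 1095 bp in both, and that of MET17 over 67 bp in G170D and 90 bp in WT. The signal at LEU2 and MET17 goes against the labelled background, and its origin was not tested.

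Fewer ATG genes had a DHS in G170D than in WT, and, as over all genes, the sequence after coding ends was covered more than promoters or coding regions were. With the 3 windows joined, 20 of the 37 members had a DHS in G170D and 26 in WT. Of these, 19 had one in both strains, 1 in G170D only (ATG29) and 7 in WT only (ATG31, ATG2, ATG18, ATG23, ATG27, ATG38 and ATG15). In the upper 50% of each DHS list by score, a setting applied to the joined windows after the data were seen, the numbers were 11 in G170D and 11 in WT. Over all genes the shares were 57.5% in G170D, 60.8% in WT, 51.8% in both, 5.68% in G170D only and 8.96% in WT only. The members' shares were 54.1% in G170D (exact 95% interval 36.9 to 70.5) and 70.3% in WT (53.0 to 84.1), and both intervals contain the share of all genes. The intervals cover counting error only. DHS length over the joined windows was less in G170D at 18 members and more at 9, beside 44.2% and 21.1% of all genes. Total DHS length over the 37 loci was 11758 bp in G170D and 14323 bp in WT, and 9800 bp were common to both lists. That common length was 83.3% of the G170D length and 68.4% of the WT length, against 83.1% and 69.5% over all genes.

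Promoter windows of 8 members held a DHS in G170D and those of 11 members in WT. The members were ATG14, ATG7, ATG10, ATG19, ATG32, ATG22 and ATG26 in both strains, ATG3 in G170D only, and ATG18, ATG23, ATG34 and ATG15 in WT only. Over all genes 29.6% of promoters held a DHS in G170D, 31.6% in WT, 24.6% in both, 4.98% in G170D only and 7.05% in WT only. For the members the share was 21.6% in G170D (9.83 to 38.2) and 29.7% in WT (15.9 to 47.0), near that background. In the upper 50% of each DHS list by score the promoters with a DHS were 3 in G170D and 5 in WT, with 0 in G170D only and 2 in WT only. With DHS lists of the same number 2 promoters were G170D only, and with windows of 1000 bp 2 were WT only. With all DHS and windows of 500 bp, DHS length was shorter in G170D than in WT in 8 promoter windows and longer in 3, and ATG14 was at 500 bp in both. Over all genes 18.7% of promoters had less and 11.2% had more in G170D. The mean per promoter was 57.2 bp in G170D and 76.4 bp in WT, a difference of -19.2 bp, beside means of 89.6 and 98.5 bp and a difference of -8.95 bp over all genes. The median difference was 0 bp in each set, since most promoters held no DHS in either strain.

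Coding regions of 14 members held a DHS in G170D and those of 15 in WT. These were 12 members in both strains, ATG20 and ATG29 in G170D only, and ATG31, ATG9 and ATG2 in WT only. Over all genes the shares were 40.2% in G170D, 44.9% in WT, 35.2% in both, 5% in G170D only and 9.68% in WT only. DHS length in the members' coding regions was less in G170D in 9 (24.3%) and more in 8 (21.6%). Over all genes 33.1% had less and 13.7% had more. Any difference of 1 bp or more counted here, such as -3 bp at ATG8. In length the 9 lower regions summed to -1904 bp and the 8 higher ones to 859 bp. After coding ends, 13 members had a DHS in G170D and 15 in WT, with 12 in both strains, ATG9 in G170D only, and ATG31, ATG27 and ATG38 in WT only. Over all genes these shares were 39.3%, 43.2%, 34.5%, 4.73% and 8.68%. Length after the end was less in G170D for 7 members, more for 4 and equal at the full 500 bp for 5, beside 24.6% of all genes with less and 12.9% with more. The downstream windows of the members were covered over 25.2% of their length in G170D and 29.6% in WT, against 11.4% and 15.3% for their promoter windows and 9.63% and 11.7% for their coding regions. Over all genes the covered share was 25.2% in G170D and 29.1% in WT after coding ends, 17.9% and 19.7% in promoter windows, and 9.94% and 12.8% in coding regions. The members' downstream and coding shares were thus near those of all genes, and their promoter shares were lower. No interval was computed for covered length. In WT the promoter share was not lower all along the window, with 24.3% at 200 to 250 bp before the start against 19.9% over all genes. In the upper 50% of each DHS list by score the downstream difference, G170D minus WT, turned to 0.465 percentage points, against -4.38 with all DHS. In coding regions it was -2.02 percentage points with all DHS and -1.19 with DHS lists of the same number.

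**Figure D1:**
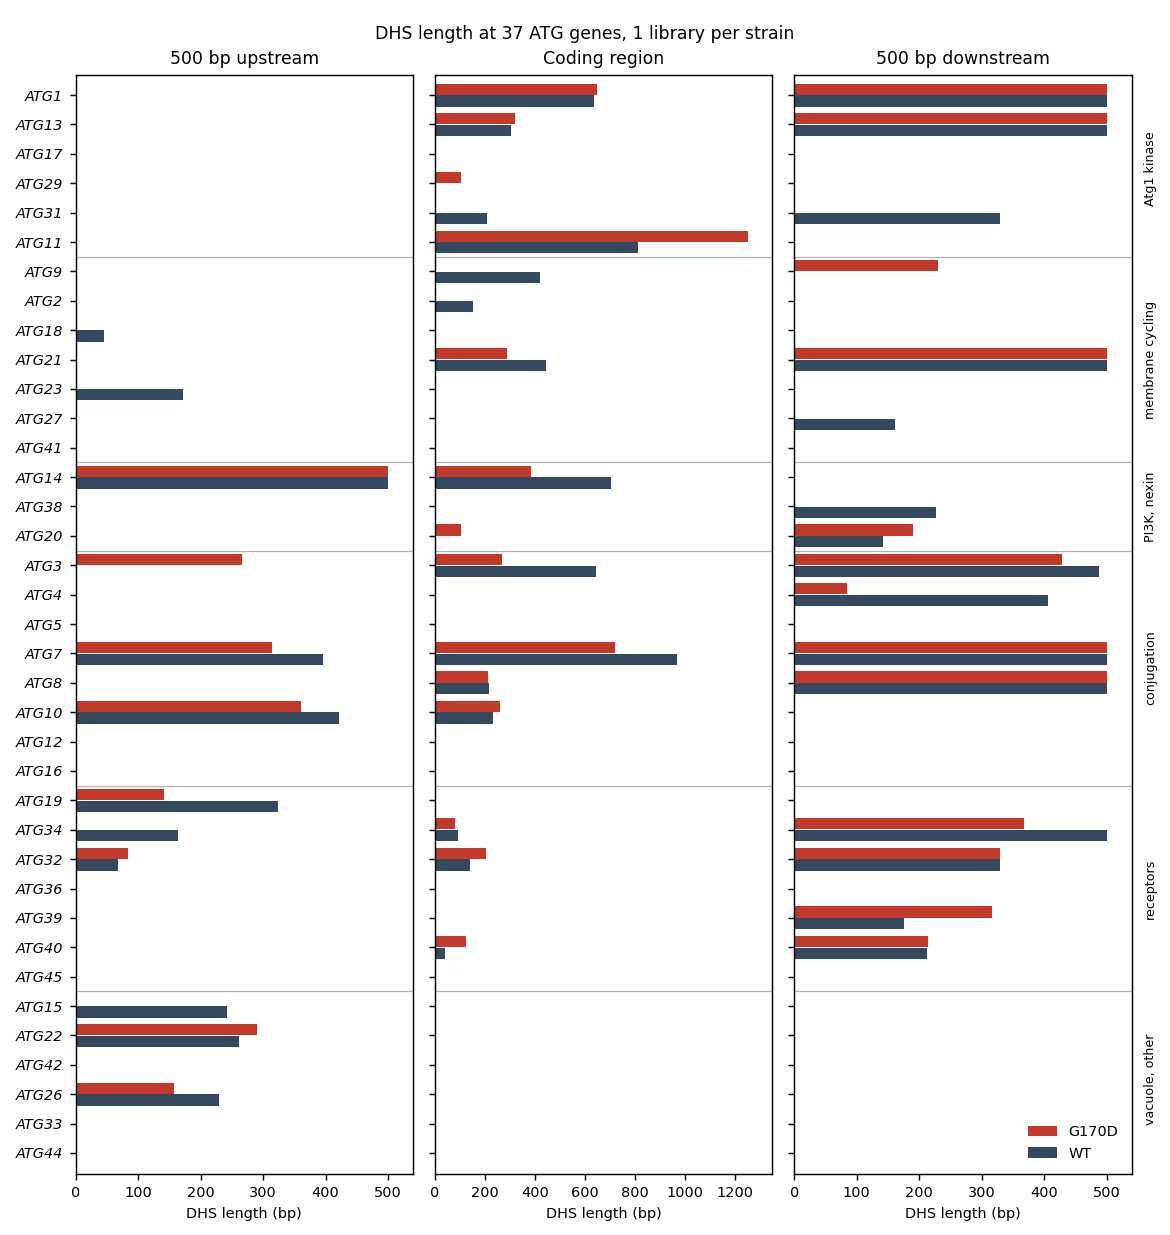
DHS length in bp (x axes) for each of the 37 ATG genes (rows, grouped by role) in the 500 bp upstream of the coding start, the coding region and the 500 bp after the coding end, with G170D bars above WT bars and 1 library per strain. None of the 6 genes of the Atg1 kinase complex and scaffold has a bar upstream, where 63.4% of all genes also had no DHS in either strain. ATG1, ATG13, ATG21, ATG7 and ATG8 are covered over all 500 bp downstream in both strains.

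The Atg1 kinase complex and its scaffold, 6 genes, had no DHS upstream in G170D or in WT. Over all genes 63.4% of promoter windows held none in either strain, so an empty window was the common case. The DHS of the 6 genes lay in coding regions and after coding ends. Their total length was close in the strains, at 3327 bp in G170D and 3291 bp in WT. ATG1 (VII:160065-162758), which encodes the kinase, held 649 bp of DHS in its coding region in G170D and 635 bp in WT. The DHS began 648 bp before the coding end in G170D and 634 bp before it in WT, and ran on past the end for 791 bp in G170D and 906 bp in WT, to the neighbouring gene TOS3, whose end faces that of ATG1. It held 28 footprints in each strain. ATG13 (XVI:907218-909434), the regulatory subunit that TORC1 phosphorylates, had the same layout. Its DHS started 319 bp before the coding end in G170D and 303 bp before it in WT, and it held 29 footprints in G170D and 25 in WT. Both genes were thus open over their ends. The edges inside the coding regions lay 14 bp apart in the strains at ATG1 and 16 bp apart at ATG13. The far edges lay 115 and 111 bp apart, and at ATG13 the G170D region reached further, 958 bp past the end against 847 bp in WT.

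ATG11 (XVI:661137-664673), the scaffold for selective autophagy, had the longest DHS within a coding region of any member in G170D. G170D had 1253 bp there in 2 DHS of 791 and 462 bp with 16 and 3 footprints, and WT had 813 bp in 1 DHS with 8 footprints. The G170D regions reached from 542 to 1332 bp and from 1493 to 1954 bp after the coding start, and the WT region from 983 to 1795 bp, so that it bridged the gap between them. ATG11 was the member with the largest excess of footprints in G170D, 19 against 8 in WT. ATG31 (IV:488072-488662), a subunit of the Atg17 scaffold complex, showed the opposite. It held no DHS in any window in G170D, against 210 bp in its coding region and 329 bp after its end in WT, with 2 and 4 footprints. The weaker of these WT regions stood at 94.4% of the WT list counted from the strongest, close to its weak end. The WT region after the ATG31 end reached into the convergent gene FAL1. ATG29, another subunit of that complex, had 105 bp in its coding region in G170D with no footprint and none in WT. ATG17 had no DHS in any window in either strain.

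Genes for membrane cycling and lipid transfer, 7 in all, held less in G170D. Their total was 1020 bp in G170D and 1899 bp in WT, and all 6 members with any DHS had less in G170D. These were 85.7% of the 7 genes. Over all genes 44.2% had less in G170D over the joined windows and 21.1% had more. Of the 6, 4 had DHS in WT only. ATG9 (IV:184925-187918) encodes the membrane protein of the vesicles that seed the autophagosome. It had a DHS of 422 bp with 6 footprints in its coding region in WT, where G170D had none, and a DHS of 231 bp with 3 footprints 218 bp after its end in G170D, where WT had none. The 2 regions lay at different places, and neither overlapped a DHS of the other strain. The G170D region reached into the convergent gene NOP14, which followed ATG9 after a gap of 235 bp. ATG21 (XVI:361872-363362), a binder of phosphatidylinositol 3-phosphate, was open in both strains over its end and the neighbouring gene INA17. Its coding region held 289 bp in G170D and 446 bp in WT, and its downstream window was fully covered in both, with 5 footprints in G170D and 11 in WT.

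The other members of this role had DHS in WT only, all of them short. ATG2, the lipid transfer protein, had 0 bp in G170D and 153 bp in WT in its coding region, from 2 DHS of 65 and 88 bp. ATG18, its partner in binding phosphatidylinositol 3-phosphate, had 0 bp in G170D and 45 bp in WT, ending 2 bp before its coding start. ATG23, which acts in the traffic of Atg9, had 0 bp in G170D and 172 bp in WT in its promoter window. ATG27, a membrane protein of the same traffic, had 0 bp in G170D and 161 bp in WT after its end. That WT region began 300 bp after the end, past the gap of 165 bp to the convergent gene PFD1. With windows trimmed at neighbouring genes it was not counted for ATG27. The ATG2 and ATG18 regions stood at 92.5% to 98.3% of the WT list by strength, among the weakest called there. ATG41 had no DHS in any window in either strain.

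The phosphatidylinositol 3-kinase genes included the most open promoter among the members. ATG14 (II:493081-494115), which directs that kinase to autophagy, had its promoter window covered over all 500 bp with 15 footprints in each strain. It was the only member with a fully covered promoter. The DHS spanned 934 bp with 17 footprints in G170D and 1065 bp with 27 footprints in WT, and reached upstream into the gene OPY1, which is read in the same direction. Inside the coding region G170D had 385 bp and 2 footprints and WT had 705 bp and 12 footprints. The promoter was thus alike in length and footprint number, while the coding region held less in G170D. ATG38, another subunit of the complex, had 0 bp in G170D and 227 bp in WT after its end. The WT region there was 681 bp wide with 10 footprints and reached over CLB4, and the nearest G170D DHS to ATG38 lay 15243 bp away, on the upstream side. ATG20, a sorting nexin, held 105 bp in its coding region in G170D and none in WT, and 190 bp after its end in G170D against 142 bp in WT.

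**Figure D2:**
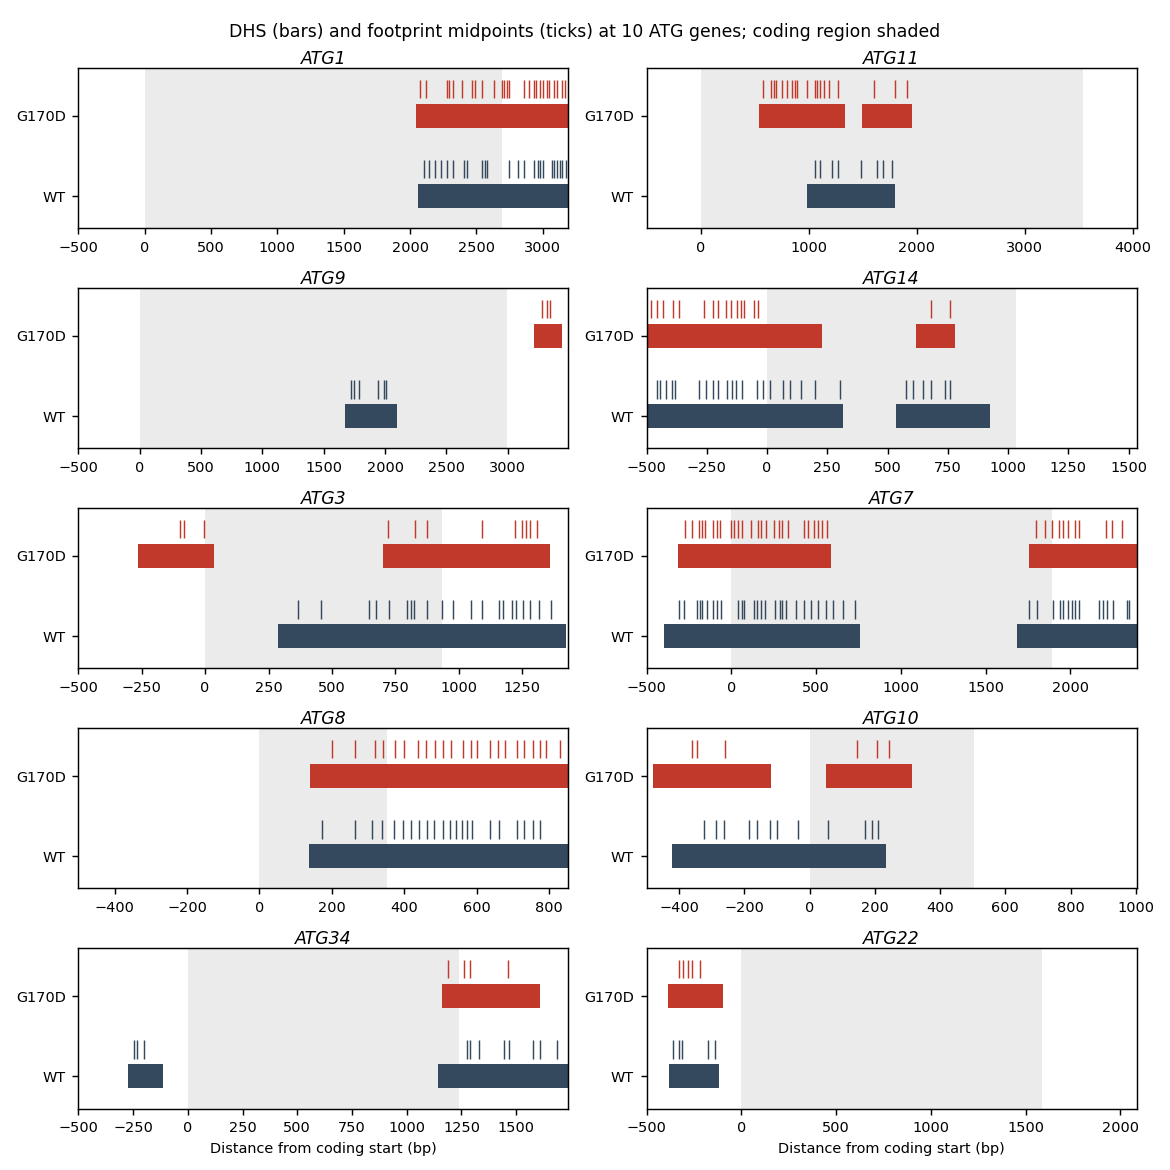
DHS (bars) and footprint midpoints (ticks) by distance from the coding start in bp (x axis) at 10 ATG genes, with G170D above WT, the coding region shaded and the view cut at 500 bp on either side. At ATG11 the WT bar spans the gap between the 2 G170D bars, at ATG3 the bar upstream of the start is present in G170D only, and at ATG1 and ATG8 the bars of both strains cover the coding end.

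Of the 8 genes for ubiquitin-like conjugation, 5 had DHS in both strains and 3, ATG5, ATG12 and ATG16, had none in either. Those 3 encode the complex that helps to attach Atg8 to lipid. The group held 3918 bp in G170D and 4778 bp in WT, and each of the 5 covered members had less in G170D over its 3 windows together. These were 62.5% of the group, beside 44.2% of all genes with less and 21.1% with more. The difference was only -3 bp at ATG8 and -33 bp at ATG10. At ATG3, ATG4 and ATG7 it was -173, -323 and -328 bp. ATG8 (II:80378-80731), the ubiquitin-like protein itself, had no promoter DHS in either strain. Its DHS was the strongest by score at any member, at 7.51% of the list from the top in G170D and 6.40% in WT. It spanned 78991 to 80591 in G170D, 1601 bp with 48 footprints, and 78338 to 80594 in WT, 2257 bp with 60 footprints. The edge inside the ATG8 coding region lay within 3 bp in the strains, and the far edge of the WT region, inside the convergent gene NUP170, lay 653 bp further out. A separate G170D DHS of 299 bp with 4 footprints, from 78411 to 78709, lay within that stretch, so that 1900 of the 2257 bp of the WT region were also in G170D DHS. Within the ATG8 windows the values were therefore close, with 214 bp in G170D and 217 bp in WT in the coding region and 500 bp in both after the end, and 23 footprints in G170D against 22 in WT.

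ATG7 (VIII:445713-447605), which activates Atg8 and Atg12, was the most covered member, open at its start and at its end. Its promoter window held 314 bp in G170D and 396 bp in WT, with 9 footprints in each. Its coding region held 722 bp and 19 footprints in G170D and 968 bp and 21 footprints in WT. The downstream window was covered over 500 bp in both, with 9 footprints in G170D and 13 in WT. The DHS after the end was the widest at any member, 1838 bp in G170D and 2371 bp in WT, and ran through the start of SPC97, the next gene on the same strand.

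ATG3 (XIV:639182-640114), which transfers Atg8 to lipid, was the only member with a promoter DHS in G170D alone. G170D had 266 bp with 3 footprints there, from a DHS of 302 bp that covered the first 36 bp of the coding region and also lay in the promoter window of the divergent gene LRO1. WT had none. In the coding region the order turned, with 267 bp and 3 footprints in G170D and 646 bp and 9 footprints in WT, and after the end G170D had 428 bp and WT 488 bp. ATG10 (XII:52087-52590), which conjugates Atg12, held 361 bp in its promoter window in G170D and 422 bp in WT, with 3 and 8 footprints. A single WT DHS of 656 bp crossed its coding start, where G170D had 2 DHS of 361 and 262 bp and none over the start itself. ATG4, the protease that processes Atg8, had DHS only after its end, 84 bp in G170D and 407 bp in WT. The DHS of both strains reached into SSU72, the next gene on the same strand, after a gap of 239 bp. The G170D DHS began 417 bp after the ATG4 end. With windows trimmed at neighbouring genes ATG4 was therefore WT only.

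Among 7 receptor genes, 5 had DHS in both strains, and ATG36, the receptor for peroxisomes, and ATG45 had none. ATG34 and ATG19 lie in tandem on chromosome XV and encode receptors that bring vacuolar enzymes into autophagosomes. In WT 1 DHS of 1692 bp with 25 footprints covered the sequence between them, from the last 94 bp of ATG34 to 177 bp before ATG19. In G170D the same stretch held 2 DHS, of 448 bp with 4 footprints by the end of ATG34 and of 527 bp with 5 footprints upstream of ATG19. The promoter window of ATG19 thus had 142 bp in G170D and 324 bp in WT. That of ATG34 had 0 bp in G170D and 164 bp in WT, from a separate region with 3 footprints. Here, as at ATG10, 1 WT region stood against 2 narrower ones in G170D.

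The other covered receptor genes had more DHS length in G170D, or nearly the same, in each window. ATG32 (IX:74184-75773), the receptor for mitochondria, had 84 bp in its promoter window in G170D and 68 bp in WT, 204 bp in its coding region in G170D and 140 bp in WT, and 329 bp after its end in G170D against 330 bp in WT. ATG39, a receptor at the nuclear envelope, had 317 bp after its end in G170D and 176 bp in WT. The DHS there stood at 27.5% of the G170D list from the top and at 90.1% of the WT list. In both strains it also touched the promoter window of CDC25, the next gene on the same strand. The DHS after the ATG32 end likewise touched the promoter window of SLN1. ATG40, a receptor on the endoplasmic reticulum, had 126 bp in its coding region in G170D and 39 bp in WT, and 214 bp after its end in G170D against 212 bp in WT. These 3 genes had more DHS length in G170D over their windows together, and ATG34 and ATG19 had less. ATG34 had 448 bp in G170D and 758 bp in WT, and ATG19 had 142 and 324 bp. The 7 receptor genes together held 1864 bp in G170D and 2047 bp in WT.

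Of the 6 vacuolar and remaining genes, 3 had a DHS in WT and 2 in G170D, in promoter windows only. Over all genes 50.15% of coding regions and 52.1% of downstream windows held no DHS in either strain. ATG15, a lipase that breaks open autophagic bodies in the vacuole, had 0 bp in G170D and 242 bp with 3 footprints in WT, from 344 to 103 bp before the coding start. The nearest G170D DHS lay 5235 bp from ATG15, on its downstream side. ATG22 (III:54941-56527), a vacuolar amino acid exporter, had 291 bp in G170D and 262 bp in WT, with 5 footprints in each, and the WT region lay wholly inside the G170D one. ATG26, a sterol glucosyltransferase, had 158 bp and 1 footprint in G170D and 230 bp and 5 footprints in WT. ATG42, a vacuolar carboxypeptidase, ATG33, a mitochondrial outer membrane protein, and ATG44 had none in either strain. In all, 10 of the 37 members had no DHS in any window in either strain, beside 33.6% of all genes. Their nearest DHS lay 874 to 4048 bp from the coding region in G170D and 536 to 4345 bp in WT.

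Each DHS touching a member was also followed as a region. There were 28 of these in G170D and 32 in WT, with a median width of 339 bp in G170D and 360 bp in WT, beside 426 and 375 bp over the whole lists. Of the 28 G170D regions 4 overlapped no WT DHS (14.3%), and of the 32 WT regions 11 overlapped no G170D DHS (34.4%). Over the whole lists these shares were 17.7% and 28.3%. The 4 G170D regions lay at ATG29, ATG9, ATG3 and ATG40. They stood between 56.3% and 85.1% of the G170D list from the strongest, so that all were in its weaker part. The 11 WT regions stood between 50.4% and 98.3% of the WT list.

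Coverage along the members was highest after coding ends, as it was over all genes. In bins of 50 bp around coding ends, the members' coverage was highest 150 to 200 bp after the end in G170D, at 29.2%, and 300 to 350 bp after it in WT, at 34.1%. Over all genes the highest values were 26.9% in G170D and 31.2% in WT. Upstream of coding starts the members reached 16.2% in G170D, 150 to 200 bp before the start, and 24.3% in WT, 200 to 250 bp before it, against 18.2% and 19.9% over all genes in the same bins. Farther out, 450 to 500 bp before the start, they were covered over 7.89% in G170D and 6.49% in WT, against 17.2% and 19.9% over all genes. With 37 genes a single gene adds up to 2.70 percentage points to a bin, so steps of a few points rest on 1 or 2 members. Of 3 equal parts of each coding region, the part nearest the end was covered most, over 12.4% in G170D and 14.9% in WT, against 9.78% and 9.09% in the part nearest the start. Over all genes these shares were 13.3% in G170D and 17.3% in WT nearest the end, and 8.56% and 11.0% nearest the start.

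**Figure D3:**
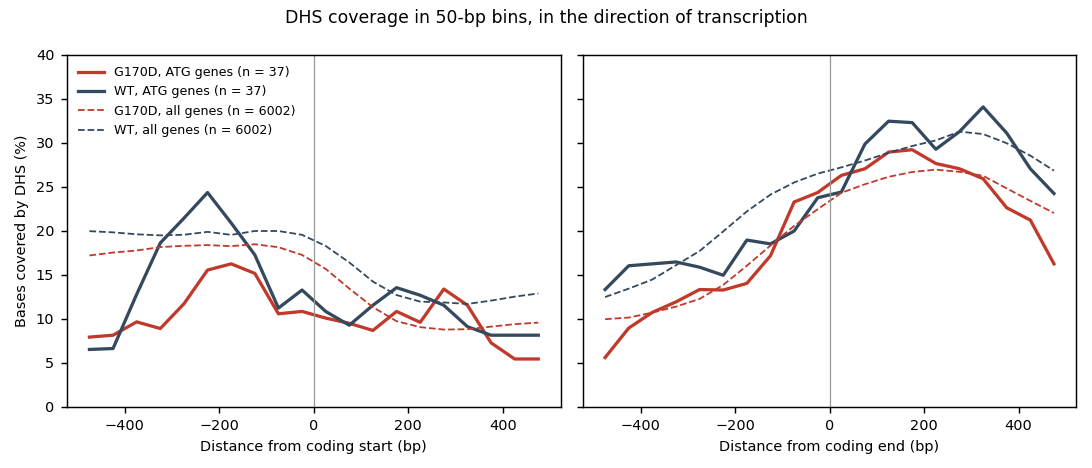
Share of bases covered by DHS in percent (y axis) in bins of 50 bp by distance from the coding start (left) and the coding end (right), for 37 ATG genes (solid lines) and all 6002 genes (dashed lines), with G170D in red and WT in dark blue. In both strains the members' lines are higher after coding ends, with highest values of 29.2% and 34.1%, than before coding starts, with highest values of 16.2% and 24.3%.

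Every footprint in either list overlapped a DHS of its own list, so footprint numbers follow where DHS were called. The windows of the 37 members held 206 footprints in G170D and 265 in WT. The ratio of G170D to WT was 0.777 (exact 95% interval 0.645 to 0.936, counting error only), against 0.747 over the same windows of all genes. Intervals for footprints, here and below, treat each footprint as independent. Many footprints lay in the same DHS, so these intervals can be too narrow. By window it was 37 in G170D and 55 in WT in promoters, a ratio of 0.673 (0.431 to 1.04), 79 and 93 in coding regions (0.849, 0.621 to 1.16), and 90 and 117 after coding ends (0.769, 0.578 to 1.02). Over all genes these ratios were 0.822, 0.691 and 0.756, each inside the members' interval. With footprint lists of the same number the members' ratio in coding regions was 1.16, so its direction turned, and the promoter and downstream ratios were 0.902 and 0.989. Per kb of DHS the members' windows held 17.5 footprints in G170D and 18.5 in WT, against 17.8 and 20.0 over all genes.

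Footprints at the members were mostly of middling strength, and the strong ones clustered at a few genes. Of the 206 footprints in G170D 5 were in the strongest 10% of the G170D list, and of the 265 in WT 9 were in the strongest 10% of the WT list. In G170D these lay at ATG8 (3), ATG13 (1) and ATG39 (1), and in WT at ATG8 (8) and ATG3 (1). The strongest in G170D covered 18 bp directly after the ATG13 coding end, with its midpoint 9 bp past it, and overlapped no WT footprint. The strongest in WT lay after the ATG8 coding end, at 2.06% of the WT list from the top with its midpoint 234 bp past the end. Where a footprint lay in DHS of both strains, 119 of 181 G170D footprints (65.7%, 58.3 to 72.6) overlapped a WT footprint, and 124 of 212 WT footprints (58.5%, 51.5 to 65.2) overlapped a G170D footprint. Over the whole lists these shares were 72.7% and 61.2%.

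**Figure D4:**
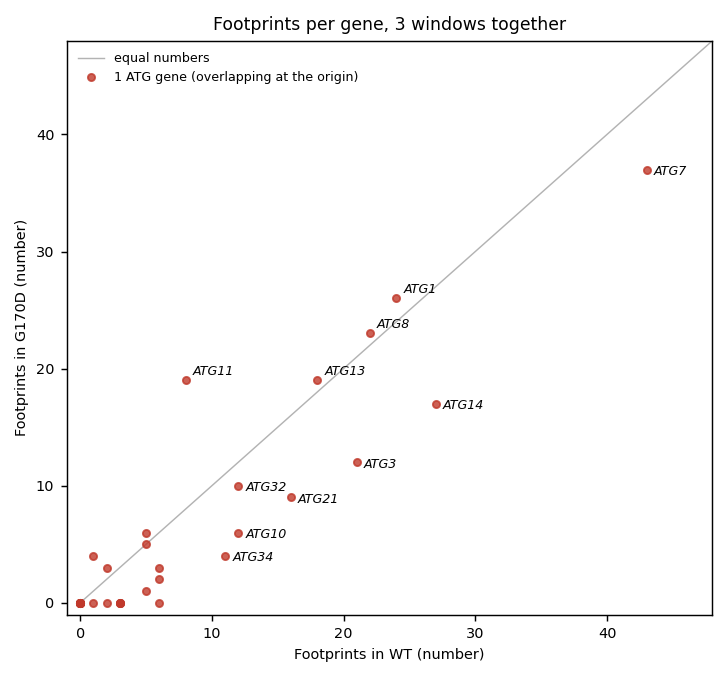
Number of footprints in the 3 windows together for each of the 37 ATG genes, in G170D (y axis) against WT (x axis), with a line of equal numbers. ATG11, with 19 in G170D and 8 in WT, lies above the line, ATG7, with 37 and 43, ATG14, with 17 and 27, and ATG3, with 12 and 21, lie below it, and ATG1, ATG13 and ATG8 lie near it.

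Other genes of the pathway, which carry no ATG symbol, were read in the same windows. The list had 54 names for 53 genes, since LAP4 and APE1 name the same gene, and includes VPS30 and SNX4, also known as ATG6 and ATG24. A promoter DHS was present in both strains at 12 of them, in G170D only at 1 (VTI1) and in WT only at 4 (TRS65, VAC8, PEP4 and PHO23). These were 22.6%, 1.89% and 7.55% of the list, beside 24.6%, 4.98% and 7.05% of all genes. In coding regions the numbers were 19, 4 and 7 (35.8%, 7.55% and 13.2%), beside 35.2%, 5% and 9.68% of all genes. After coding ends they were 25, 2 and 5 (47.2%, 3.77% and 9.43%), beside 34.5%, 4.73% and 8.68%. Promoter windows held 4858 bp in G170D and 6412 bp in WT in total, and coding regions 12072 and 17087 bp. Of the 53 coding regions 23 held less DHS length in G170D (43.4%) and 7 held more (13.2%), beside 33.1% and 13.7% of all genes.

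Genes of the machinery that fuses autophagosomes with the vacuole varied by gene and by window. VTI1, a SNARE, had 416 bp in its promoter window in G170D and 0 bp in WT, 249 and 255 bp in its coding region, and 44 and 216 bp after its end. YKT6, another SNARE, had 229 bp in G170D and 399 bp in WT over its 3 windows, and the SNARE genes VAM3 and VAM7 had none in either strain. YPT7, the Rab GTPase of that fusion, had 956 bp in G170D and 1627 bp in WT over its windows, of which 105 bp in G170D and 500 bp in WT lay in the promoter. CCZ1 and MON1 together form the exchange factor of Ypt7. CCZ1 had 660 bp in G170D and 43 bp in WT over its windows, of which 500 bp in G170D and 0 bp in WT lay after its end. MON1 had 1078 bp in G170D and 1729 bp in WT, of which 740 and 1318 bp lay in its coding region. PEP4, which encodes the main vacuolar aspartyl protease, had 0 bp in its promoter window in G170D and 305 bp in WT.

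Among genes that encode or act with TORC1, values also varied by gene. In the coding region KOG1, a TORC1 subunit, had 0 bp in G170D and 498 bp in WT, TOR1 had 0 and 423 bp, and LST8, another subunit, had 0 and 104 bp. The subunit gene TCO89 and the kinase gene SCH9 held no DHS in any window in either strain. TAP42, which binds type 2A phosphatases, had none in its coding region, and 257 bp in G170D and 327 bp in WT after its end. TOR2 had 1202 bp in its coding region in G170D and 1790 bp in WT, with promoter windows of 489 bp in G170D and 485 bp in WT. NPR2, a subunit of a complex that restrains TORC1, had 373 bp in its coding region in G170D and 858 bp in WT. Its partner NPR3 was the reverse, with 205 bp in G170D and 0 bp in WT, and with 246 bp in its promoter window in G170D and 169 bp in WT. VPS34, the lipid kinase of the pathway, had 110 bp in its coding region in G170D and none in WT, and VPS15, its regulatory kinase, had 2847 bp in G170D and 3115 bp in WT.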

How the data were processed

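DNase I hypersensitivity was sequenced in 1 G170D and 1 WT library. Per the labels' protocols, nuclei were digested briefly with DNase I and fragments were selected by size. The labels name the fragments short but state more than 650 bp, so their true size is unclear. Per the submitters' processing notes, Bowtie 0.12.8, FastQC and the build sacCer3 were used. For the DHS caller, thresholds and how scores were formed, the sources used here say nothing. The authors deposited, for either library, its DHS and its footprints (named after dnase2tf) with 1 score per region. Scores were used only to rank regions within a list. Starts were taken to count from 0, as in BED, and are printed counted from 1.

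Lists were read with Python 3.11.15, numpy 2.4.6 and pandas 2.3.3, exact Clopper-Pearson and binomial intervals (95%) came from scipy 1.17.1, and figures from matplotlib 3.10.9. Genes and symbols came from an R64 gene table, and strands from systematic names. Genes run from the coding start to the coding end, and an intron counts as part of the coding region. A gene had a DHS in a window if at least 1 bp lay there, and footprints were counted by midpoint. Windows reach into neighbouring genes. With 1 library per strain no test was made. The covered length and counts were checked on simulated lists. All members were named. The members, role lists and pathway list were chosen with earlier results of these data known. Alternatives were windows of 300 and 1000 bp, windows trimmed at neighbouring genes, at least 50 bp of DHS, lists of the same number, score thresholds, and footprints counted by overlap. A planned search for sequence motifs was not run, and sequences were not analysed here. Depth is unknown.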

Additional observations from a re-analysis of the deposited data

How the results depend on the processing

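Of 102 recomputed values 79 stayed within 1.5 times the reported one in the same direction, 21 moved and 2 turned. A footprint ratio of exactly 1 was counted as moved. For other footprint ratios the limit applied to the ratio itself, so one that came close to 1 could count as stayed. Such were, with footprint lists of the same number, the promoter ratio, from 0.673 to 0.902, and the downstream ratio, from 0.769 to 0.989. With the stronger part of each DHS list (its upper 50% by score), the members with a DHS in any window were 11 in each strain (a count added after the data were seen), and those with a DHS in the promoter window were 3 in G170D and 5 in WT, with 0 in G170D only and 2 in WT only. Coding regions with a DHS were then 9 in each strain, and downstream windows 8 in G170D and 7 in WT, with 2 in G170D only and 1 in WT only. The difference in covered share, G170D minus WT, was then -1.31 percentage points in coding regions, against -2.02 with all DHS, and turned to 0.465 after coding ends, against -4.38. Fewer regions follow from the construction of that list, and the cause of the turn was not tested. With DHS lists of the same number, 2 promoters were covered in G170D only and 1 coding region in WT only, and the difference in coding regions was -1.19. There ATG18, ATG2 and the coding region of ATG31 left the WT-only members, since their WT regions stood among the weakest. For ATG32 only the promoter window became G170D only. With windows of 1000 bp, 2 promoters were WT only and 0 downstream windows G170D only. The downstream difference was -2.23 with windows of 300 bp and -1.88 with windows trimmed at neighbouring genes. With trimmed windows ATG27 left the downstream WT-only members and ATG4 joined them. Members with a DHS in any window were then 19 in G170D and 25 in WT. The footprint ratio in coding regions was 1.16 with footprint lists of the same number, against 0.849 with all footprints, and the promoter ratio was 1 with the stronger part of each footprint list; causes were not tested. No paired analysis was possible because each strain had 1 library. Unknown depth limits every statement about regions not called.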

Other observations

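The direction of the neighbouring gene was read for each member. Upstream of 19 members the next gene was divergent, and 2 of these promoter windows held a DHS in G170D and 3 in WT. Upstream of the other 18 it was in tandem, and 6 held a DHS in G170D and 8 in WT. Over all genes divergent promoters held a DHS in 26.6% of cases in G170D and 27.4% in WT, and tandem ones in 32.8% and 36.3%. A tandem promoter window can reach over the end of the gene before it, as at ATG14 with OPY1. After coding ends, 22 members faced a convergent neighbour and 15 a tandem one. Of the convergent ones 7 held a DHS in G170D and 9 in WT, and of the tandem ones 6 in G170D and 6 in WT, beside 44.2% and 48.6% of convergent and 34.2% and 37.7% of tandem windows over all genes.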
